A study of Caenorhabditis elegans with 2 samples.

Results

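SPTF-2 ChIP-seq peaks at protein-coding starts that all run in one direction were examined in young adult Caenorhabditis elegans. A peak was counted when its signal value in the list called from both replicates together was 55 or more and its summit lay within 500 bp of at least 1 annotated protein-coding start. All such starts had to be on the same strand, and no tRNA, snoRNA or snRNA gene could start within 500 bp. The members were thus chosen by their pooled signal value and their distance to a start, and those values are given as a description with no test. The rule kept 1037 of the 3768 pooled peaks with a signal of 55 or more, which is 27.5% of them, and the pooled list held 30000 peaks in all. Promoter is used here as a short name for a window around an annotated start, and the gene coordinates are those of Ensembl release 115 on assembly WBcel235, the same build as ce11.

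The data came from 1 group of 2 biological replicates of strain OP769. These worms carry the allele unc-119(tm4063) and the transgene wgls769, which holds sptf-2 fused to TY1, EGFP and 3xFLAG together with an unc-119(+) rescue marker. The labels describe whole animals, male and female pooled, collected as young adults at 64.5 h after synchronisation by starving L1 larvae hatched from bleached adults. Chromatin was sheared by sonication and precipitated with an antibody against GFP, so the signal is that of the tagged protein over whole animals. Many cells with weak occupancy and few cells with strong occupancy cannot be told apart in such material. The peak lists hold no expression values, so neither the stage nor the tissues could be checked against marker genes, and the sequencing depth behind the lists is unknown.

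SPTF-2 is a zinc finger transcription factor of the Sp type, and the best known mammalian proteins of that family bind GC-rich DNA such as the GC box and the related CACC box at the promoters of many widely expressed genes. In C. elegans many transcripts are trans-spliced, which removes the original 5′ end of the RNA. An annotated start in this species can therefore be a trans-splice site that lies downstream of the position where RNA polymerase began, and genes can also be transcribed together in operons.

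The sequences below are shown because they carry the motifs compared between groups of peaks. All are given 5′ to 3′ along the strand of the gene, on ce11, and were read from the RefSeq genome of that assembly. The first set holds the GC box core, GGGCGG or its reverse complement, in capitals, at 6 of the strongest members that hold it within 100 bp of the summit. They lie at III:10759165-10759225 on the plus strand for tasp-1, a homolog of the protease taspase, and at III:10461313-10461373 on the plus strand for atx-2, an RNA-binding protein related to ataxin-2. The others lie at X:12171971-12172031 on the minus strand for F57G12.1, an uncharacterized protein, and III:1619182-1619242 on the minus strand for Y22D7AL.10, a mitochondrial heat shock protein. The last of the set lie at III:5172675-5172719 on the plus strand for K10D2.5 and II:1320562-1320622 on the plus strand for vig-1.
tasp-1: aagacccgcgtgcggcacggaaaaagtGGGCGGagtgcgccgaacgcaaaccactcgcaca
atx-2: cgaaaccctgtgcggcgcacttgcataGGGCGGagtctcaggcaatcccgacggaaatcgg
F57G12.1: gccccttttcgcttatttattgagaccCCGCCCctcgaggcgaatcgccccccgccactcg
Y22D7AL.10: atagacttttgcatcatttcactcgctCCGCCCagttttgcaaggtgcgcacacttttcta
K10D2.5: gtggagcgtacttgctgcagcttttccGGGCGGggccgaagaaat
vig-1: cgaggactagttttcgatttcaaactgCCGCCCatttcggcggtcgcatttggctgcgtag

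The next set holds the GA repeat, GAGAGA or its reverse complement, in capitals, because this motif was the more common one at the summits. It lies at III:10759269-10759306 for tasp-1 and III:3867466-3867526 for rpl-3, which encodes a protein of the large ribosomal subunit. At atx-2 it lies at III:10461390-10461450, inside a coding exon, where the repeat occurs in several overlapping copies. All are on the plus strand, and tasp-1 and atx-2 stand in both sets.
tasp-1: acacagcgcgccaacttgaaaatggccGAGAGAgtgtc
rpl-3: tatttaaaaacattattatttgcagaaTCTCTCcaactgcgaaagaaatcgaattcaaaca
atx-2: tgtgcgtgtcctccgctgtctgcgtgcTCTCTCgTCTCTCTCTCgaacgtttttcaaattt

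The last set shows the summits of the strongest members with no GC box core, CACC box or GA repeat within 100 bp of the summit. They are entirely in lower case because none of those letters occur there. They lie at II:8625276-8625336 for sptf-2, the gene that was tagged, at III:7854665-7854725 for rpl-35, a large ribosomal subunit gene, and at III:5018306-5018366 for wip-1, which encodes a WH2 domain protein. All are on the plus strand.
sptf-2: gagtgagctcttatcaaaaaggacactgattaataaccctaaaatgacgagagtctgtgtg
rpl-35: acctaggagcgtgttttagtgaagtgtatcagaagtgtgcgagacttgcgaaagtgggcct
wip-1: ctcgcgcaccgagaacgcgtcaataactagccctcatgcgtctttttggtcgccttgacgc

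The signal value is the peak caller's own score, so it orders peaks within a list but has no unit. Among the 1037 members it was 55.04 at the lowest, 63.9 at the median and 399.4 at the highest, and the middle of the distribution ran between quartiles of 58.7 and 74.8. The distribution had a long upper tail, and few members were far above the threshold. Just inside it were Y116A8C.10 at 55.06 and peb-1 at 55.04, and just outside it were K01A6.8 at 54.997 and lec-1 at 54.986. The optimal list keeps peaks past a limit on the irreproducible discovery rate, which rests on the agreement of ranks between peak lists. It held 98 members, or 9.45%, and 939 were not in it. These 98 were all the members with a pooled signal of 90.39 or more. Among members the optimal list was therefore the same as a cut on pooled signal. Of all pooled peaks with a signal of 55 or more, 10.8% were in the optimal list, a share close to that of the members.

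The strongest member was sptf-2 itself, with a signal of 399.4, and its replicate lists gave a signal of 221.3 at rank 3 in replicate 1 and 182.8 at rank 5 in replicate 2. Its summit at II:8625306 lay 153 bp before the start. A second sptf-2 member at 110.1 had its summit 47 bp after the start and overlapped the same peak in each replicate list. Because the worms carry a transgenic copy of this gene, reads from the transgene and from the native locus cannot be told apart here.

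tasp-1 followed with a pooled signal of 342.6, with 182.3 at rank 7 in replicate 1 and 144 at rank 8 in replicate 2, and its summit lay 61 bp before the start. mdt-26, which encodes a subunit of the Mediator complex that links transcription factors to RNA polymerase II, had a pooled signal of 240.6, with 121.2 at rank 19 in replicate 1 and 125.2 at rank 11 in replicate 2. Its summit lay in an intron, 207 bp after the start. These members ranked among the strongest peaks of each replicate on its own.

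The large ribosomal subunit gene rpl-3 had 203.1 in the pooled list, 123.2 at rank 18 in replicate 1 and 81.35 at rank 27 in replicate 2. rpl-35 had 201.8 in the pooled list, with 132 at rank 15 in replicate 1 and 62.39 at rank 102 in replicate 2. rpl-31 had 136.3 in the pooled list, with 70.91 at rank 125 in replicate 1 and 62.8 at rank 96 in replicate 2. The summits of these genes lay before the nearest start, by 263 bp at rpl-3, 439 bp at rpl-35 and 217 bp at rpl-31. The summit of rpl-31 lay in an intron, before an alternative start inside the gene. A second rpl-3 member, with 83.73 in the pooled list, had its summit 403 bp after a start.

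Other strong members served varied functions. wip-1 had 167.4 in the pooled list, with rank 46 in replicate 1 and rank 32 in replicate 2, and atx-2 had 154.8 with ranks 136 and 25 in replicates 1 and 2. gei-4 had a pooled signal of 148.7 with ranks 54 and 79, and dpf-3, a peptidase of the dipeptidyl peptidase IV type, had 148 with ranks 92 and 54. All of these summits lay before the start, from 37 bp at gei-4 to 303 bp at wip-1.

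set-2, which encodes a methyltransferase for histone H3, was less even between replicates: its pooled signal was 143.6, with 109.1 at rank 24 in replicate 1 and 35.2 at rank 1721 in replicate 2. F57G12.1 had a pooled signal of 138.8 with ranks 66 and 179 in replicates 1 and 2, and pcrg-1, a homolog of the Parkin coregulated gene, had 138.6 with ranks 90 and 106. hsp-110, a heat shock protein, had 128.3 with ranks 63 and 191 and a summit 132 bp after the start. ddp-1, whose product is related to the mitochondrial import protein Tim8, had 123.6 with ranks 327 and 85. Of the 15 strongest members, 13 had their summit before the start, 12 lay between genes, 9 were on chromosome III and all 15 had support in each replicate. Over all 1037 members, 52.1% had it before the start, 35.3% lay between genes, 14.6% were on III and 28.2% had support in each replicate. These differences were not tested.

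Support from the single replicates was read from their own lists. A member was counted as supported by a replicate when it overlapped, by at least 1 bp, one of the 3768 strongest peaks of that replicate's list. Both replicates supported 292 of 1037 members, or 28.2% (exact 95% interval 25.4 to 31.0), replicate 1 alone supported 350 and replicate 2 alone supported 258. Neither supported 137 members, 13.2% of them. Over all pooled peaks with a signal of 55 or more the share supported by both was 28.5%, so the members were near the background of the list. Against the whole replicate lists of 30000 peaks, 974 members had a peak in both and none lacked one in both. Since the pooled list is made from the same reads as the replicate lists, these shares describe how evenly the signal was spread and are no independent test. Intervals of this kind cover counting error over peaks only.

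**Figure D1:**
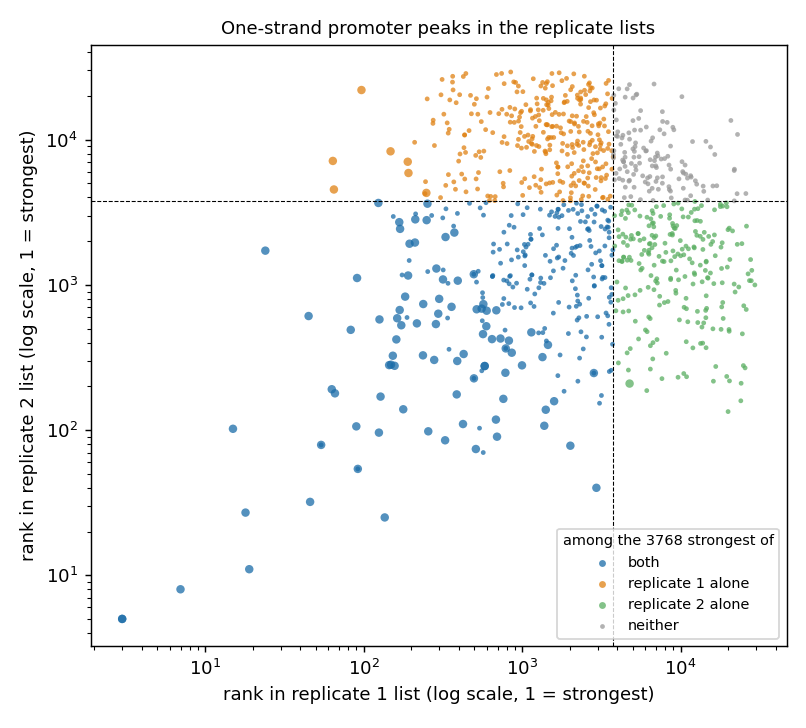
Rank of each member's overlapping peak in the replicate 1 list (x axis, log scale) and the replicate 2 list (y axis, log scale), with 1 the strongest; dashed lines mark rank 3768, colours show which replicates held the member among their strongest peaks, and large points are members in the optimal list. The 974 members with a peak in both lists are drawn, and most lie outside the lower left field that holds the 292 supported by both.

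Support was more common at higher pooled signal. Among the 328 members of 55 to 60, 5.18% were supported by both replicates, among the 453 of 60 to 75, 18.1%, among the 158 of 75 up to the lowest signal in the optimal list, 90.4, 65.8%, and among the 98 above that, 90.8%. In the optimal list, 89 members were supported by both replicates, 8 by replicate 1 alone and 1 by replicate 2 alone. These shares follow in part from how the lists were made, since the optimal list was itself derived from both replicates and filtered on the irreproducible discovery rate. Among members that filter gave the same peaks as a cut on pooled signal.

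Some strong members rested mostly on one library. ntl-2, of the CCR4-NOT complex that shortens mRNA tails, had a pooled signal of 112.4 with rank 65 in replicate 1 and rank 4541 in replicate 2. sco-1 had 109.5 with ranks 64 and 7142 in replicates 1 and 2, and Y43F8C.3 had 101.1 with ranks 97 and 21989. The opposite held for saeg-1 at 92.71, with rank 4768 in replicate 1 and rank 209 in replicate 2, for T23E7.2 at 83.3 with ranks 9641 and 231, and for nspg-14 at 82.47 with ranks 6120 and 187. mes-6, which encodes a Polycomb group protein, had 116.7 with rank 2944 in replicate 1 and rank 40 in replicate 2.

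Members with no overlapping peak at all in one replicate were fewer, 40 without one in replicate 2 and 23 without one in replicate 1. The strongest without a replicate 2 peak were ZK550.2 at 93.34, C56C10.7 at 78.42 and T22C8.4 at 75.6, and ZK550.2 was in the optimal list all the same. The strongest without a replicate 1 peak were srbc-20 at 70.44, tac-1 at 67.47 and rps-10 at 65.2. The strongest members found among the 3768 strongest peaks of neither replicate were F25E5.9 at 72.29, F28C6.9 at 69.04 and Y76A2B.4 at 67.35.

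**Figure D2:**
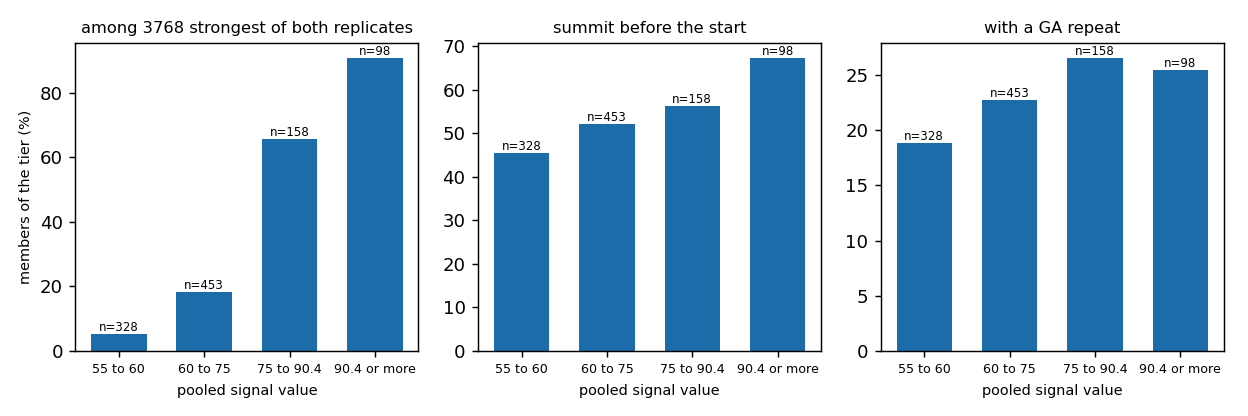
Share of members (y axes, %) supported by both replicates (rank 3768 or better in each), that had their summit before the start, and that held a GA repeat, by pooled signal (x axes), with the number of members above each bar. The share supported by both is 5.18% in the lowest tier and 90.8% in the highest, and the share before the start is 45.4% in the lowest and 67.3% in the highest.

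The rule used the size of the distance to a start and not its side. Of the members, 540 of 1037 had the summit before the nearest start, or 52.1% (exact 95% interval 49.0 to 55.2), 496 had it after and 1 was at it. Weaker peaks, those at one-strand promoters with a signal under 55, had 2961 of 6716 before it, or 44.1%. The ratio of the shares was 1.18 (adjusted p = 1.205e-05, Fisher's exact test). The median signed position, negative before the start, was -17 bp in members and 46 bp in the weaker peaks. Within the members the share before the start was 45.4% at 55 to 60, 52.1% at 60 to 75, 56.3% at 75 to 90.4 and 67.3% above that.

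**Figure D3:**
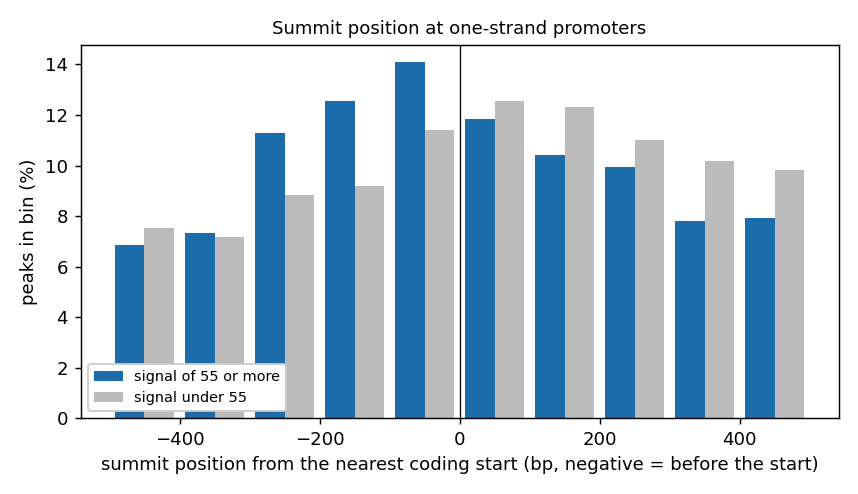
Share of peaks (y axis, %) by position of the summit relative to the nearest protein-coding start (x axis, 100 bp bins, negative before the start), for members with a signal of 55 or more and for weaker peaks at one-strand promoters. The members' highest bin, 14.1%, is the last 100 bp before the start, and the weaker peaks' highest, 12.6%, is the first 100 bp after it.

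The summits were not all in promoters in the narrow sense. Between genes lay 366 members, 35.3% of them, against 29.2% of weaker peaks, while 318 members (30.7%) lay in a coding exon, against 35.8% of weaker peaks. Introns held 233 members, 5′ UTRs 82 and 3′ UTRs 38. The nearest start was the first start of its gene for 71.7% of members and 72.1% of weaker peaks. For the others it was a later annotated start, which could lie well inside the gene or only a few bp from the first, as at simr-1. Among members in the optimal list the farthest summits before the start were those of ntl-2 at 479 bp, W08E12.7 at 459 bp and rpl-35 at 439 bp. The farthest after it were those of the cuticle collagens col-98 at 487 bp and col-122 at 432 bp and of mes-6 at 373 bp.

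Starts that lie in the same direction as a close upstream gene can belong to operons. Of the 997 genes nearest to a member, 56.9% had their upstream neighbour on the same strand and 21.9% had it within 500 bp. The values were 58.02% and 19.9% for genes nearest to a weaker peak, and 54.6% and 18.1% over all protein-coding genes. These shares were close and were not tested. The rule drops summits with a protein-coding start on the other strand within 500 bp, a limit that was not put on all protein-coding genes. Noncoding RNA genes annotated as ncRNA started within 500 bp of 125 members, 12.1% of them, against 7.67% of weaker peaks, and piRNA genes within 500 bp of 18 members, 1.74%, against 2.34%.

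The members were spread over all chromosomes, with between 151 on III and 208 on V. Chromosome X held 181 members, or 17.5% (exact 95% interval 15.2 to 19.9), against 7 of the 127 divergent promoter peaks, or 5.51%, which had a signal of 55 or more and protein-coding starts on both strands. The ratio was 3.17 (adjusted p = 5.675e-04, Fisher's exact test). It was 7.99 with the replicate 2 list alone and 2.73 with the replicate 1 list alone. With a signal of 75 or more the ratio was 2.81 and did not pass (adjusted p = 0.137, Fisher's exact test). Nor did it with starts within 250 bp, where the ratio was 5.16 (adjusted p = 0.105, Fisher's exact test). The annotation itself differs in the same way: 15.9% of protein-coding starts with no opposite start within 1000 bp are on X, and 4.50% of those with one. The part of this background in the difference was not tested.

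Set against weaker peaks at one-strand promoters, the X share of members gave no call: 17.5% in members and 16.9% in weaker peaks, a ratio of 1.03 (adjusted p = 0.723, Fisher's exact test). With the same rule applied to the replicate 2 list alone the ratio was 0.845 and with the replicate 1 list alone 0.839, and the ratio from the replicate 1 list passed (adjusted p = 0.0428, Fisher's exact test). Members that neither replicate supported had the highest X share, 26.3%, against 16.1% of those supported by both. Of all protein-coding genes, 13.7% are on X. Chromosome V held 20.1% of members and 25% of protein-coding genes. Neither share was tested against the genes.

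Sequence was searched on both strands in the 201 bp around each summit and in an equal window centred 500 bp upstream along the gene. The motifs were the GC box core, written GGGCGG, and a longer form that contains it, written GGGCGGG. The CACC box was searched as CACCC, the Krüppel-like motif as CCACGCCC and the GA repeat as GAGAGA. The TATA box was searched as TATAAA, the CCAAT box by its name, the E-box as CACGTG and the GATA motif as WGATAR, where W is A or T and R is A or G. The letters of worm 3′ splice sites were searched as TTTCAG and the T run as TTTTTT. Control hexamers were made of the same letters as the GC box core, with CGGGGG as control 1 and GGGGGC as control 2, or of the same letters as the GA repeat, with AGAAGG. A match is a description of the letters and not a binding site. In all 45 tests were adjusted together, and 21 passed at 0.05.

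The GC box core was found at 90 of 1037 member summits, or 8.68%, and in 39 upstream flanks, or 3.76%, a ratio of 2.31 (adjusted p = 2.853e-05, exact McNemar test). The longer GGGCGGG was at 26 summits and in 4 flanks, a ratio of 6.5 (adjusted p = 2.230e-04, exact McNemar test). With the replicate 2 list alone the ratio was 2.12 and the call was lost (adjusted p = 0.173, exact McNemar test). It was also lost with a signal of 75 or more (adjusted p = 0.158, exact McNemar test). The control hexamers of the same letters were also more common at summits, control 1 at 61 summits and in 12 flanks (adjusted p = 3.168e-08, exact McNemar test), and control 2 at 63 summits and in 18 flanks (adjusted p = 3.903e-06, exact McNemar test). Their ratios were 5.08 and 3.50. They moved with the list used: with the replicate 2 list alone they were 2.45 for control 1, 3.36 for control 2 and 2.17 for the GC box core. With the replicate 1 list alone they were 3.15 for control 1, 2.17 for control 2 and 2.23 for the GC box core. The median GC content was 43.8% at member summits, 34.8% in the upstream flanks and 38.3% in the downstream flanks. The part of base composition in the GC box result was not tested.

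The CACC box was at 198 summits, or 19.1%, and in 123 flanks, or 11.9%, a ratio of 1.61 (adjusted p = 1.681e-05, exact McNemar test). With a signal of 75 or more the ratio was 1.5 and the call was lost (adjusted p = 0.152, exact McNemar test). The GA repeat was at 232 summits, or 22.4%, and in 131 flanks, or 12.6%, a ratio of 1.77 (adjusted p = 3.168e-08, exact McNemar test). Its control AGAAGG was at 130 summits and in 118 flanks, a ratio of 1.10 that did not pass (adjusted p = 0.587, exact McNemar test). The TATA box was less common at summits, at 146 summits and in 240 flanks (adjusted p = 1.233e-06, exact McNemar test). So were the splice site letters, at 302 and in 359, and the T run, at 420 and in 697 (adjusted p = 0.0236 and 4.764e-31, exact McNemar test). With the downstream flank the ratio went from 0.608 to 0.789 for the TATA box and from 0.603 to 0.781 for the T run. For the splice site letters it went from 0.841 to 0.780, and all of them still passed. For the splice site letters the call was lost with the replicate 1 list alone (adjusted p = 0.0538, exact McNemar test) and with starts within 250 bp (adjusted p = 0.332, exact McNemar test). The Krüppel-like motif, the CCAAT box, the E-box and the GATA motif did not pass.

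**Figure D4:**
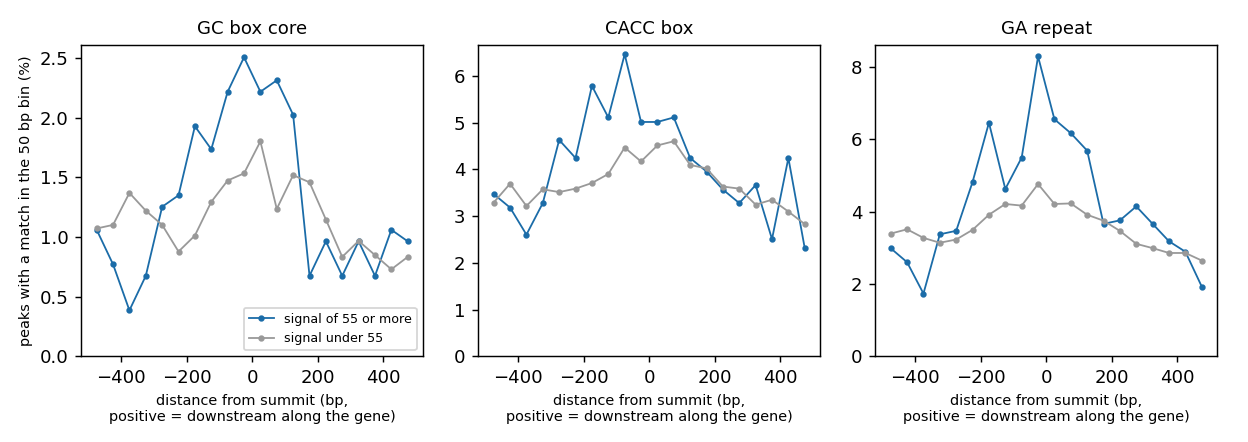
Share of peaks with a match in each 50 bp bin (y axis, %) against the distance of the bin from the summit along the gene (x axis, bp), for the GC box core, the CACC box and the GA repeat, in members with a signal of 55 or more and in weaker peaks at one-strand promoters. In members the GA repeat reaches 8.29% in the bin just before the summit and the GC box core 2.51% in the same bin.

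Weaker one-strand promoter peaks held fewer GC box cores, GA repeats and CACC boxes than members. The GC box core was in 8.68% of members and 5.61% of weaker peaks, a ratio of 1.55 (adjusted p = 6.993e-04, Fisher's exact test). The GA repeat was in 22.4% and 14.8%, a ratio of 1.51 (adjusted p = 3.168e-08, Fisher's exact test), and the CACC box in 19.1% and 15.7%, a ratio of 1.21 (adjusted p = 0.0187, Fisher's exact test). By summit location the GA repeat was in 32.0% and 18.8% between genes, 24.0% and 13.5% in introns, and 31.6% and 16.9% in 3′ UTRs. It was in 8.81% and 10.6% in coding exons and in 23.2% and 24.2% in 5′ UTRs. The GC box core and the CACC box were less common in members in 5′ and 3′ UTRs and more common elsewhere. The shares by location were not tested. For the CACC box the call was lost with starts within 250 bp, where the ratio was 1.01 (adjusted p = 1, Fisher's exact test). It was also lost with a signal of 75 or more (adjusted p = 0.429, Fisher's exact test) and in the optimal list (adjusted p = 0.560, Fisher's exact test). Both GC controls again went with the GC box core, with ratios of 1.79 for control 1 and 2.03 for control 2 (adjusted p = 3.825e-04 and 1.681e-05, Fisher's exact test), while AGAAGG had a ratio of 1.04 (adjusted p = 0.723, Fisher's exact test). For control 1 the call was lost with starts within 250 bp (adjusted p = 0.105, Fisher's exact test) and in the optimal list (adjusted p = 0.0585, Fisher's exact test). The T run, the TATA box and the splice site letters were more common in weaker peaks. The T run was in 40.5% of members and 48.2% of weaker peaks (adjusted p = 1.759e-05, Fisher's exact test). The TATA box was in 14.1% and 17.1%, and the splice site letters in 29.1% and 33.0% (adjusted p = 0.0299 for each, Fisher's exact test). All of these calls were lost with starts within 250 bp and in the optimal list. The median GC content of the weaker peaks was 39.8%. Windows were also centred at the members' median signed position, -17 bp, on all 29304 protein-coding starts. In them the GC box core was in 5.24%, the CACC box in 13.6%, the GA repeat in 14.7% and the T run in 61.7%. They do not follow the spread of member positions, whose median distance in either direction was 206 bp.

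Against divergent promoter peaks the T run was the one motif of 14 that passed. It was at 40.5% of member summits and 58.3% of divergent ones, a ratio of 0.695 (adjusted p = 5.675e-04, Fisher's exact test). The call was lost with starts within 250 bp, where the ratio was 0.728 (adjusted p = 0.164, Fisher's exact test), and in the optimal list, where it was 0.526 (adjusted p = 0.0513, Fisher's exact test). Divergent summits lay between genes in 65.4% of cases, against 35.3% of members, and with summits between genes alone the T run was in 47.0% of members and 67.5% of divergent peaks. The GC box core was in 8.68% of members and 10.2% of divergent peaks, a ratio of 0.848 (adjusted p = 0.606, Fisher's exact test). The exact 95% interval of the divergent share, 5.56 to 16.9%, was wide with 127 peaks. The CACC box was in 19.1% of members and 11.02% of divergent peaks (adjusted p = 0.0568, Fisher's exact test).

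Motifs differed with the side of the start. Members with the summit before the start held the GC box core in 62 of 540 cases, or 11.5%, and those after it in 27 of 496, or 5.44%. For the GA repeat the shares were 31.3% before and 12.7% after, and for the CACC box 20.4% before and 17.7% after. Protein-coding starts in general had the same lean: windows centred 150 bp before all starts held the GC box core in 5.79% and windows 150 bp after in 2.73%, and the GA repeat in 16.3% and 9.10%. These differences were not tested. The GC box core read along the gene strand alone in 29 members, along the other strand alone in 57 and on both in 4. The GA repeat read along the gene strand alone in 85 and along the other alone in 135.

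Most members held none of the 3 motifs. At least 1 of them was found in 419 members, or 40.4%, all 3 in 10, and none in 618, or 59.6%. The strongest members with the GC box core were tasp-1, atx-2 and F57G12.1, printed above. More than 1 GC box core was found in 8 members, the strongest of which was gsa-1, the stimulatory G protein alpha subunit, with a pooled signal of 93.86 and ranks 387 and 176 in replicates 1 and 2. tbx-2, a T-box transcription factor, also held 2 of them, with a pooled signal of 74.66.

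The members lay at starts of 1024 of 19973 protein-coding genes, so 5.13% of all such genes had a member. Most of them, 983 genes, had 1 member, 40 had 2, and tyra-2, a tyramine receptor gene on X, had 3 with signals of 62.12, 61.7 and 57.61. Genes were grouped in 31 lists by symbol, and the share of each list is given beside this background with no test. A list by symbol leaves out genes that carry another kind of name, so each share and ranking holds within its list only. Members left out in this way include the mitochondrial heat shock protein gene Y22D7AL.10 at 119.5. Others are Y48B6A.1, a homolog of the ribosome biogenesis protein BOP1, at 109.4, and F36A2.7, cytochrome c oxidase subunit 4, at 90.69.

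Genes of the cytosolic ribosome stood highest, with a member at 39 of 82, or 47.6% (exact 95% interval 36.4 to 58.9). Of these, 22 were supported by both replicates and 9 were in the optimal list. Below rpl-3, rpl-35 and rpl-31 came rpl-41.2 at 114.3, rps-25 at 111.4 and rps-30 at 106.8, with summits 272, 349 and 377 bp after the start. The rps-30 peak is nearer to the start of another gene, C26F1.3, with its summit 345 bp before that start. Over the 39 genes, 31 had their strongest summit after their own start and 8 before it, with a median of 210 bp after. Of all 1037 members 496 lay after the start, but that count is by peak and by the nearest start of any gene. None of the 39 genes had the GC box core at its strongest member, which by a limit of 3 counts of 39 allows a share of up to 7.69%. An exact two-sided 95% interval would reach higher, so no shortfall against all members is read from this count. Over all members the share was 8.68%, and it was 5.44% of those with the summit after the start. The GA repeat was in 9 of the 39, against 22.4% of all members. None of this was tested.

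Genes of the mitochondrial ribosome had no member among 70, which by the same limit of 3 counts allows a share of up to 4.29% (the exact two-sided 95% interval reaches 5.13%), and 23 of them had a weaker one-strand peak alone. Translation factors had a member at 8 of 44, or 18.2%, led by the release factor erfa-3 at 122.2, the elongation factor eef-1A.2 at 103.9 and iff-2 at 87.46. Aminoacyl tRNA synthetases, which charge tRNAs, had 1 of 32, mars-1 at 55.99. The list of ribosome biogenesis genes had 3 of 24, which were ncl-1 at 91.44, fib-1, the fibrillarin of the nucleolus, at 90.5, and tsr-2 at 62.19.

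Splicing factors had a member at 13 of 55, or 23.6% (exact 95% interval 13.2 to 37.02), led by mog-3 at 117.9, prp-40 at 93.18 and mog-4 at 92.37. Chaperones had 13 of 69, or 18.8% (exact 95% interval 10.4 to 30.1), led by hsp-110, then hsp-3 at 108.1 and hsp-90 at 96.02. Among transcription complexes, Mediator and Integrator genes had 4 of 36, which below mdt-26 were mdt-22 at 72.36, mdt-31 at 63.4 and sop-3 at 62.36. RNA polymerase subunits had 3 of 25, ama-1 at 71.64, rpb-2 at 67.86 and rpc-2 at 56.92, and all of these summits lay after the start.

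Chromatin regulators had 10 of 108, or 9.26%, led by set-2, mes-6 and epc-1 at 98.34. In 9 of the 10 the summit lay before the start, with a median position of -256.5 bp, the opposite side from the ribosomal protein genes; the difference was not tested. Proteasome genes had 4 of 33, or 12.1% (exact 95% interval 3.4 to 28.2), led by pbs-5 at 67.2, rpn-11 at 64.87 and pbs-4 at 61.59. Ubiquitin pathway genes had 9 of 145, or 6.21%, led by eel-1 at 99.27, ubc-7 at 83.15 and ubc-25 at 75.31. Vesicle traffic genes had 7 of 93, or 7.53%, led by sec-61.G at 116.6, vps-25 at 102.1 and sec-61.A at 80.3. Small GTPases had 3 of 48, or 6.25%, which were rab-7 at 72.13, ran-1 at 68.66 and arf-1 at 57.36.

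Metabolic genes included 11 of 89 lipid genes, or 12.4% (exact 95% interval 6.33 to 21.04), led by the lipid-binding protein gene lbp-9 at 90.24 and the fatty acid desaturase genes fat-5 at 86.18 and fat-6 at 82.73. In 10 of the 11 the summit lay after the start. Respiration genes had 6 of 67, led by cox-5B at 118.3, cox-5A at 106.6 and cyc-2.1 at 83.45. The cyc-2.1 peak is the same peak as that of rpl-20, whose start is the nearer one, and it is counted in both lists. The V-ATPase had 2 of 20, vha-10 at 71.18 and vha-7 at 55.65.

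Cuticle collagens had 16 of 177, or 9.04%, led by col-98 at 99.75, col-122 at 94.14 and col-106 at 92.76. In 14 of the 16 the summit lay after the start, with a median of 411 bp. A list of P granule and other germline genes had 10 of 102. It was led by ekl-7, a PEHE domain protein, at 97.07, pgl-1, a protein of the P granules, at 88.25, and car-1 at 79.9. The HORMA domain protein genes htp-3 at 66.35 and him-3 at 58.26 were also in it. Actin and tubulin genes had 2 of 21, tbb-2 at 76.42 and tba-7 at 75.93.

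Transcription factor families varied. Basic leucine zipper and helix-loop-helix factors had 6 of 56, led by atf-6 at 77.43, zip-10 at 68.23 and atf-4 at 65.92, and homeobox genes had 7 of 88, led by zag-1 at 74.96, ttx-1 at 74.16 and nob-1 at 67.31. Nuclear hormone receptors had 8 of 273, or 2.93%, led by nhr-1 at 98.01, nhr-8 at 82.86 and nhr-66 at 69.09. Of the 6 Sp and Krüppel-like factor genes, sptf-2 was the one with a member. Histone genes had 2 of 80, his-61 at 80.02 and his-70 at 71.28.

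Chemoreceptors and F-box genes lay below the background. Chemoreceptors had 16 of 1310, or 1.22% (exact 95% interval 0.700 to 1.98), led by srw-95 at 82.17, srh-300 at 75 and srh-271 at 72.22. F-box genes had 2 of 322, or 0.621% (exact 95% interval 0.0753 to 2.23), which were fbxb-53 at 61.87 and fbxb-72 at 56.23. C-type lectins had 6 of 240, or 2.5% (exact 95% interval 0.923 to 5.36), led by clec-76 at 66.76, clec-251 at 63.36 and clec-104 at 62.88. Detoxification genes had 4 of 185, or 2.16% (exact 95% interval 0.592 to 5.44), led by gst-26 at 70.7, gst-9 at 66.3 and ugt-26 at 55.93. Both of these intervals hold the 5.13% of all genes. Neuropeptides had 6 of 142, or 4.23%, led by nlp-31 at 72.17, flp-5 at 62.22 and nlp-76 at 59.81, and potassium channels had 3 of 69, or 4.35%, which were kqt-1 at 69.03, twk-22 at 60.58 and twk-17 at 56.67. These shares were near that of all genes.

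**Figure D5:**
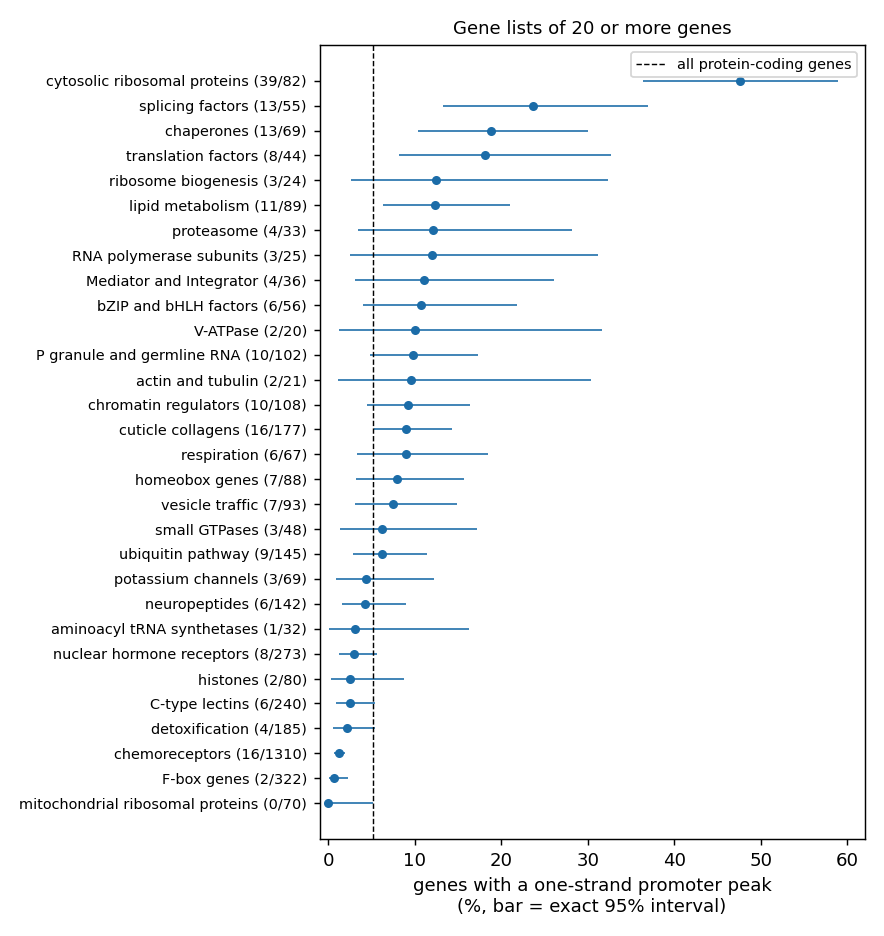
Share of genes with a member (x axis, %) for each list of 20 or more genes (rows, with counts), with exact 95% intervals over genes as bars and the share over all protein-coding genes, 5.13%, as a dashed line. Cytosolic ribosomal protein genes stand at 47.6%, and chemoreceptors at 1.22% and F-box genes at 0.621% stand below the line.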

How the data were processed

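The deposited files are peak lists in narrowPeak format on ce11. Per the deposited file descriptions, a replicate's list goes back to its own alignment plus a control alignment. The pooled list goes back to the alignments of both replicates with a control, and the optimal list keeps peaks past a limit on the irreproducible discovery rate. Neither aligner nor caller is named (not given in the sources used here). Column 7, the deposited signal value, is a score with no unit, so scores were compared within a list only. The summit is an offset in bp. Replicate support used overlap with as many of the strongest replicate peaks, 3768, as the pooled list holds at or above 55.

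Summits were placed against Ensembl release 115 starts of protein-coding transcripts and 1087 tRNA, snoRNA and snRNA genes. Sequence came from the RefSeq genome of the same assembly, in which 99.9% of 12284 annotated plus-strand start codons read ATG. Motif windows reached 100 bp either side of the summit, with flanks centred 500 bp away. Summits and flanks were compared with the exact McNemar test and groups of peaks with Fisher's exact test, both two-sided, adjusted by Benjamini-Hochberg over 45 tests with Python 3.11.15 and SciPy 1.17.1, after checks on simulated data. Peaks, not worms, are the units, so p-values say nothing of variation between animals.

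The members, lists and tests were chosen with earlier results of these data known. Gene lists were symbol patterns, some of which were corrected after the members had been seen because they took in unrelated genes. Named are the 15 strongest members, those nearest the threshold and the 3 strongest of each list. Also named are the strongest with one-sided or no replicate support, genes with 3 members and the farthest in the optimal list. The genes with more than 1 GC box core, a few further down a list and single examples outside the lists were chosen after their values were seen.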

Additional observations from a re-analysis of the deposited data

How the results depend on the processing

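The counts of members followed the threshold: 2262 members at 2146 genes with a signal of 45, 256 at 256 genes with 75, and 98 at 98 genes in the optimal list. The share supported by both replicates was 13.9% at 45, 75.4% at 75, 90.8% in the optimal list, 25.2% when the summit had to lie inside the replicate peak, 25.2% when at least 50% of the member had to be covered, and 93.9% against the whole replicate lists. In the optimal list the GC box core ratio was 4 against the flank (adjusted p = 0.106, exact McNemar test) and 2.18 against weaker peaks (adjusted p = 0.0513, Fisher's exact test), with fewer peaks tested. Against divergent peaks the GC box core ratio turned to 1.06 with starts within 250 bp (adjusted p = 1, Fisher's exact test). For chromosome X the ratio to divergent peaks was 2.81 at 75, 5.16 within 250 bp and 2.91 in the optimal list, none passing. The X ratio to weaker peaks was 0.916 within 250 bp, 1.14 within 1000 bp (adjusted p = 0.0486, Fisher's exact test) and 0.907 in the optimal list. It was 0.839 to 0.845 with a single replicate list. The cause of these changes was not tested. The summit side kept its direction and its call under every alternative run. For the 17 other motif results, 143 of 173 values kept their call, 30 lost it and none changed direction; where a flank count was 0 no ratio was formed. With replicate 2 alone, 999 members were found, 525 of them overlapping a pooled member, and with replicate 1 alone 1051, with 624 overlapping. Leaving out the peaks at the tagged gene, chosen after seeing the data, gave 1035 members and changed no call. No paired analysis was possible because the samples form 1 group.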
